A study of Mus musculus with 20 samples.

Results

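Hearts of C57BL/6J mice with a myocardial infarction (MI) were compared with hearts of sham mice by sequencing of small RNA. The labels name 5 sham hearts (sham 1 to sham 5) and 4 hearts with infarction as the only treatment (MI 1 to MI 4), among 20 hearts in the series. The other hearts carry the labels CIH, read here as chronic intermittent hypoxia, or MI+CIH, and enter below only through the spread between libraries that the fit estimates. No genotype, age, sex, time from surgery to harvest or region of the heart is given in the sources used here. Nothing says that each library came from its own mouse, so the p-values measure the spread between these libraries. The table has 1545 rows of known and predicted miRNAs, and the 360 with at least 5 RPM (reads of a miRNA per 1000000 reads assigned to the table) in at least 4 of the 20 libraries were taken. The series title concerns remodelling of the infarcted heart under disordered breathing in sleep, and the comparison described here is the effect of infarction without the hypoxia.

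A miRNA is cut from a hairpin transcript that yields a 5p and a 3p arm, and the arm that is kept guides a silencing complex to messenger RNAs that pair with its seed, bases 2 to 8. miRNAs with the same seed can bind the same sites and are treated as families. After an infarction, cardiac muscle dies, leukocytes enter and fibroblasts build a scar. The miRNAs known to mark these cells include miR-1, miR-133, miR-208 and miR-499 in cardiac muscle, miR-126 in endothelium, miR-143 and miR-145 in smooth muscle, miR-223, miR-142, miR-150 and miR-155 in leukocytes, and miR-21, miR-199a and miR-214 in fibroblasts. In bulk tissue, fewer cells of a type and less RNA per cell cannot be told apart.

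The members on which the results turn fall into seed families, and their mature sequences are shown with the seed in capitals, as RefSeq gives them for mouse (GRCm38.p6). The let-7 family shares the seed GAGGUAG, and its members differ from one another outside it.
let-7a-5p: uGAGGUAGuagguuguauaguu
let-7b-5p: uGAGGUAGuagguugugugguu
let-7c-5p: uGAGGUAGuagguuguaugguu
let-7d-5p: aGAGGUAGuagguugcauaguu
let-7e-5p: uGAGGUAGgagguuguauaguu
let-7f-5p: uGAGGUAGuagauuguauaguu
let-7g-5p: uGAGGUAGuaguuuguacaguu
let-7i-5p: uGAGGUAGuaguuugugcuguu
miR-98-5p: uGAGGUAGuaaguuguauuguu

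The miR-125 family, with miR-351-5p, shares CCCUGAG. Members of the miR-181 and miR-146 families are shown as further miRNAs with a higher mean in MI, and both miR-101 entries as miRNAs with a lower mean. The miR-101 entries start at different bases, so their seeds are offset although their sequences overlap. Both arms of miR-208a and the fibroblast miRNAs miR-214-3p and miR-21a-5p are shown because their values part below.
miR-125a-5p: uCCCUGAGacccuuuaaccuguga
miR-125b-5p: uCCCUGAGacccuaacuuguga
miR-351-5p: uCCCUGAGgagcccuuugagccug
miR-99a-5p: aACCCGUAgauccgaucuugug
miR-181a-5p: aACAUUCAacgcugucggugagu
miR-181b-5p: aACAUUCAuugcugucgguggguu
miR-146a-5p: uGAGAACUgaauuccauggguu
miR-146b-5p: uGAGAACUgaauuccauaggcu
miR-101a-3p: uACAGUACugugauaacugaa
miR-101b-3p: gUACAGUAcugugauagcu
miR-208a-5p: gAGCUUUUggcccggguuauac
miR-208a-3p: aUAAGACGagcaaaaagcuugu
miR-214-3p: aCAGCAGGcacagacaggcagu
miR-21a-5p: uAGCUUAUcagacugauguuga

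The 4 infarcted hearts did not form a uniform group, and MI 2 lay among the sham hearts. Pearson's r across the 360 miRNAs on the log2(RPM + 1) scale, with the mean of the other sham hearts, was 0.970, 0.993, 0.993, 0.986 and 0.995 for sham 1 to sham 5. The same r was 0.905, 0.991, 0.844 and 0.923 for MI 1 to MI 4. MI 2 was therefore closer to the sham mean than sham 1 or sham 4 was, while MI 3 was the farthest of the 9. In MI 2, 245 of 360 miRNAs (68.1%) lay within the range of the 5 sham hearts, against 57 in MI 1, 55 in MI 3 and 135 in MI 4. Only 21 miRNAs in MI 2 were over 2-fold from the sham mean, against 268 in MI 1, 254 in MI 3 and 162 in MI 4. By these measures the library labelled MI 2 lay within the spread of the sham hearts, and results are given with and without it.

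**Figure D1:**
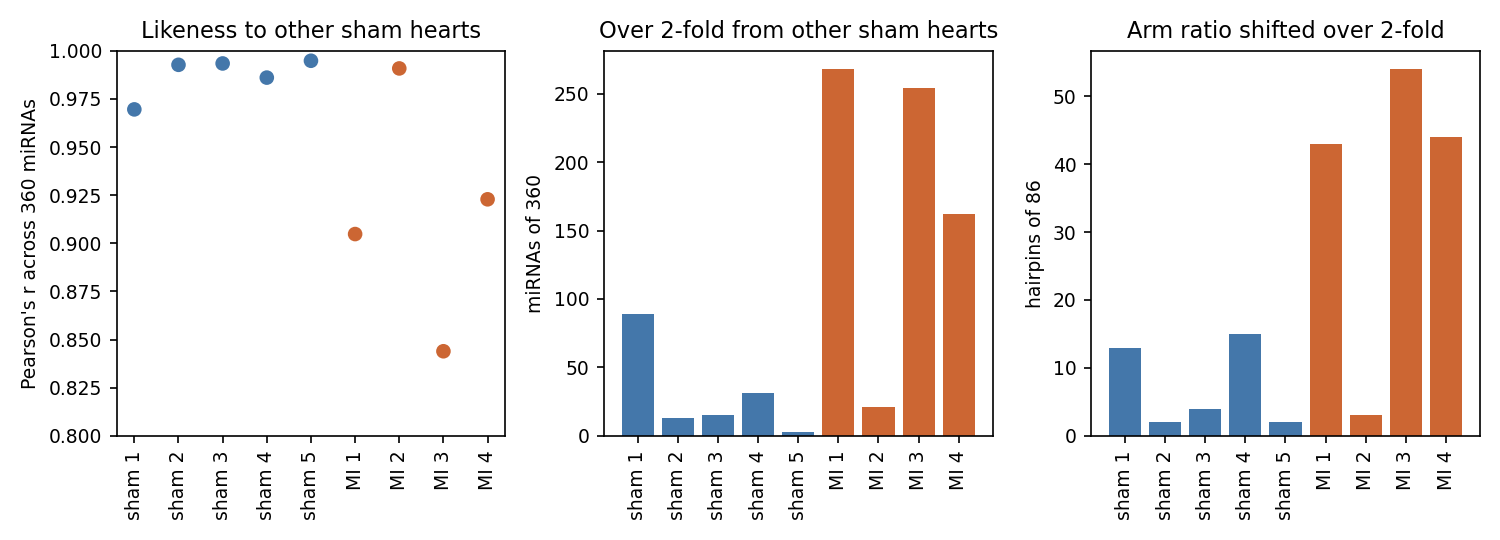
Left, Pearson's r across 360 miRNAs of each heart with the mean of the other sham hearts, on an axis that starts at 0.8. Middle, number of miRNAs over 2-fold from the mean of the other sham hearts. Right, number of 86 hairpins whose ratio of arms lay over 2-fold from that of the sham hearts. Bars and points are blue for sham and orange for MI. MI 2 sits with the sham hearts in each panel (r of 0.991, 21 miRNAs, 3 hairpins).

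Sham 1 also stood apart, less than MI 1, MI 3 or MI 4 did. It had 89 miRNAs over 2-fold from the other sham hearts, against 3 to 31 in sham 2 to sham 5, and was the highest sham heart in 174 of 360 miRNAs (48.3%). Clustering of all 20 libraries on their miRNA levels gave 3 sets that no label names. One set of 11 held every sham heart and every CIH heart, with MI 2 and MI+CIH 1. A set of 6 held MI 1 and MI 3, and a set of 3 held MI 4, the rest of both being MI+CIH hearts. Since the sets with MI 1, MI 3 and MI 4 hold infarcted hearts only and no sham heart, what sets them apart and the infarction cannot be told apart.

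Features other than the level of a miRNA moved with the same hearts. Of 86 hairpins with both arms tested, the ratio of the arms lay over 2-fold from that of sham in 43 in MI 1, 54 in MI 3 and 44 in MI 4, against 3 in MI 2 and 2 to 15 in the sham hearts. The arms of a hairpin are made from the same transcript, so for abundant arms a ratio changes little with the amount of that transcript. The ratios were taken on the log2(RPM + 1) scale, so those with a low arm do depend on level. Some rows also share reads, such as miR-126a-5p with miR-126b-3p. For 306 of the 360 miRNAs (85.0%) a RefSeq sequence gave the GC content, and the difference from the sham mean increased with GC content in MI 1 (Pearson's r = 0.44 across miRNAs) and MI 3 (r = 0.53). In MI 4 (r = 0.02) and MI 2 (r = 0.08) it did not, and in the sham hearts r ran from -0.20 to 0.19. In MI 3 the median difference was -0.34 for the 58 miRNAs under 40% GC and 2.94 for the 72 at 55% GC or more, and in MI 1 the medians were -0.10 and 2.29. The part of arm ratios and GC content in the results below was not tested beyond a fit with GC content taken out of each library.

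**Figure D2:**
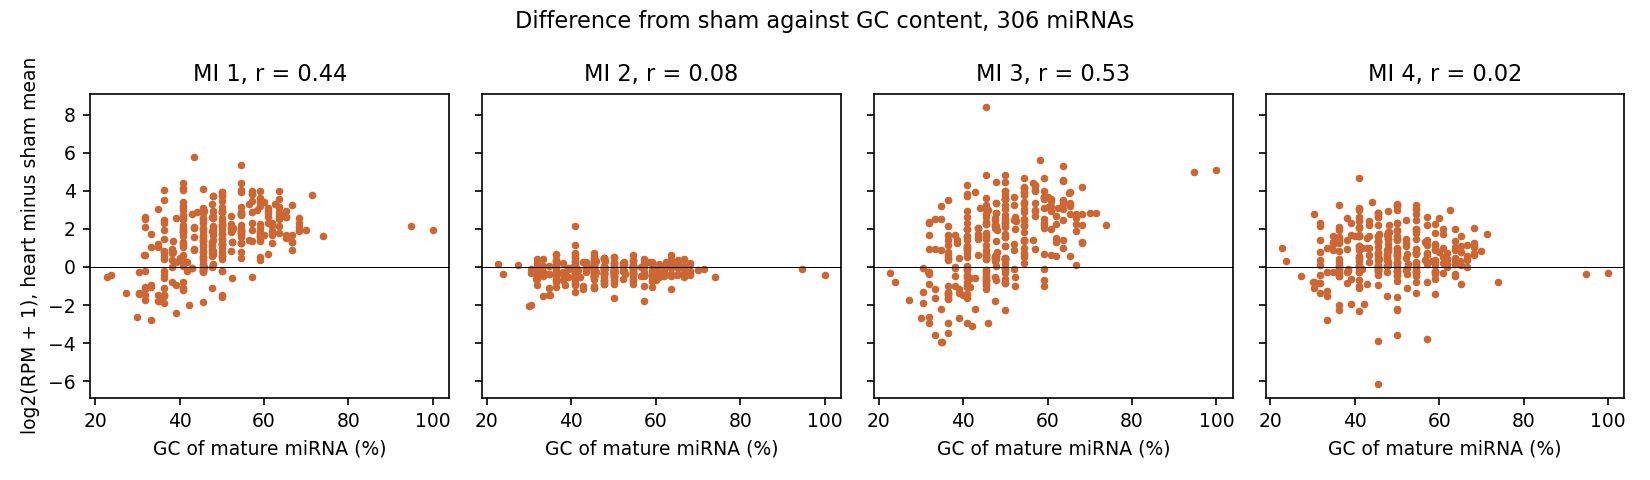
Difference of each MI heart from the sham mean, in log2(RPM + 1), against the GC content of the mature miRNA in percent, for 306 miRNAs, 1 panel per heart. The cloud tilts upward in MI 1 (r = 0.44) and MI 3 (r = 0.53), is flat and narrow in MI 2 (r = 0.08), and is flat and wide in MI 4 (r = 0.02).

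Markers of other tissues differed between the infarcted hearts. The skeletal muscle miRNA miR-206-3p stood at 370.2 RPM in MI 3, 2.29 RPM in MI 1 and under 1 RPM in the other 7 hearts. The liver miRNA miR-122-5p reached 19.5 RPM in MI 3, 4.63 RPM in MI 4 and 2.18 RPM in MI 1, against 0.439 to 0.877 RPM in sham and 0.138 RPM in MI 2. The epithelial pair miR-200b-3p and miR-205-5p summed to 347 RPM in MI 1, 24.9 to 34.3 RPM in the other MI hearts and 9.13 to 42.6 RPM in sham. The brain pair miR-9-5p and miR-124-3p summed to 738 RPM in MI 3, 264 RPM in MI 1, 129 and 106 RPM in MI 2 and MI 4, and 106 to 141 RPM in sham. Nearly all of that was miR-9-5p, and miR-124-3p stood at 5.31 RPM in MI 3 and at or under 1.32 RPM elsewhere. The part of other tissues in the results below was not tested. The cardiac muscle markers miR-1a-3p, miR-133a-3p, miR-208a-3p and miR-499-5p summed to 193358 to 278561 RPM in sham and 164340 to 300717 RPM in MI. Most of each sum was miR-1a-3p, so it says little about the other markers, whose values are given below.

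The 9 libraries held 3387231 (MI 3) to 18138415 (MI 4) reads assigned to the table, and 1 read was worth 0.0551 to 0.295 RPM. A count of 0 allows up to 3 reads, or 0.165 to 0.886 RPM, for counting error alone. Among the rows are 12 pairs that repeat each other's reads, such as miR-126a-5p with miR-126b-3p, and the second of each pair is left out of the counts of groups below. Those repeats took 16.4% to 29.6% of the reads of a library, so every RPM is a share of a total that holds them.

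Over all 4 infarcted hearts, no miRNA passed the test against sham, although most were higher. limma on log2(RPM + 1) called 0 of 360 (0%) at an adjusted p of 0.05, with 101 at an unadjusted p under 0.05 (28.1%) and a smallest adjusted p of 0.0701. edgeR on the recovered reads also called 0, with 72 passing before adjustment at 0.05, and DESeq2 called 39 (35 higher, 4 lower). The mean was higher in MI than in sham for 291 of 360 miRNAs (80.8%), and the median log2 change was 0.94. That median was 0.13 under median-of-ratios scaling and -0.04 under TMM scaling, which set the bulk of the miRNAs level between libraries in place of the total reads. The direction of a moderate change therefore depends on the scaling, and the change of a group is set beside the median of all 360.

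The count changed with the hearts included. Without MI 2, limma called 113 (31.4%), of which 107 were higher (29.7%) and 6 lower (1.67%), with a median change of 1.32. MI 2 was set aside because its values resemble those of sham, so these calls rest on a choice made with the outcome in view. Below, "rose" and "fell" are used of miRNAs called in that comparison of MI 1, MI 3 and MI 4 with the 5 sham hearts. Under median-of-ratios scaling the same comparison called 29 higher (8.06%) and 33 lower (9.17%), and under TMM scaling 22 higher (6.11%) and 40 lower (11.1%). The excess of higher limma calls without MI 2 was thus seen as RPM and not under those scalings. edgeR without MI 2 called 21 higher and 16 lower, and DESeq2 with MI 2 kept called 35 higher and 4 lower. With GC content taken out of each library, limma called 0 of 306 with MI 2 kept. Without MI 2, that fit called 105 higher (34.3%) and 4 lower (1.31%), and 89 of these 109 were also among the 113. As RPM without GC adjustment, leaving out MI 1 or MI 3 beside MI 2 gave 39 and 35 calls, and leaving out MI 4 beside MI 2 gave 194. Leaving out MI+CIH 1, which enters only the spread, gave 31 calls with MI 2 kept. With the library set as a term, 0 were called, 8 had an unadjusted p under 0.05, and the median change was -0.04. The sets come from these same levels, and MI 2 is the only MI heart in the set that holds the sham hearts. That fit cannot tell the infarction from the set, so its 0 decides nothing.

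**Figure D3:**
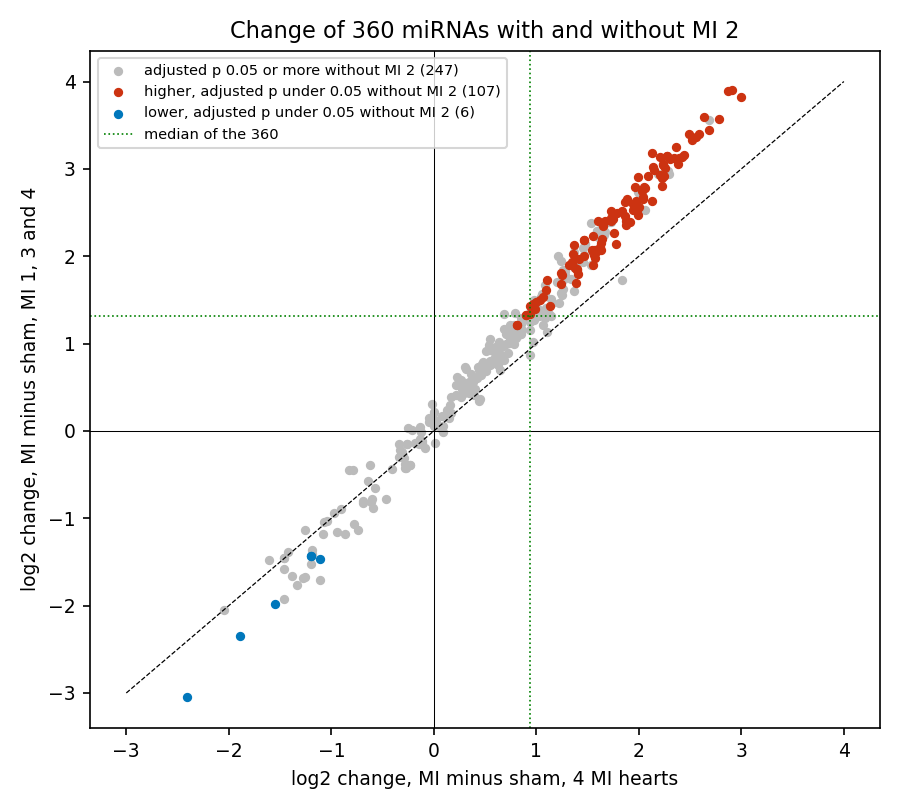
log2 change (MI minus sham) of 360 miRNAs over all 4 MI hearts (horizontal) and over MI 1, MI 3 and MI 4 (vertical), each point a miRNA, with the dashed line marking equal change. Dotted lines mark the medians, 0.94 and 1.32. The 107 miRNAs called higher without MI 2 (red) and the 6 called lower (blue) lie farther from 0 on the vertical axis than on the horizontal one.

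A count of separated groups needs no test. All 4 MI hearts lay above all 5 sham hearts for 13 miRNAs (3.61%), among them let-7a-5p, let-7f-5p, let-7g-5p, miR-125a-5p, miR-181a-5p, miR-181b-5p and miR-361-3p. All 4 lay below for 6 rows (1.67%): miR-101b-3p, miR-126a-5p with its repeat miR-126b-3p, miR-143-3p, miR-29c-3p and miR-881-3p, the last named after its values were seen. With MI 2 set aside, the MI hearts lay above all sham hearts for 123 miRNAs (34.2%) and below for 17 (4.72%). These 3 hearts did not move as one: 85 miRNAs were over 2-fold above the sham mean in all 3, 8 were over 2-fold below, 114 were over 2-fold above in MI 1 and MI 3 but not MI 4, and 34 in MI 4 but neither of the others.

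The let-7 miRNAs hold back genes of growth in mature tissue. All 9 members tested had a higher mean in infarcted hearts under each of the 3 scalings. Without MI 2, 9 of 9 rose, against 29.7% higher over all 360. let-7i-5p stood at 2924, 1072, 1239, 1391 and 1123 RPM in sham 1 to sham 5 and at 8262, 2114, 7061 and 8712 RPM in MI 1 to MI 4. MI 1, MI 3 and MI 4 lay more than 2-fold above every sham heart, and MI 2 lay below sham 1. Over 4 hearts its log2 change was 1.996 (SE 0.49, adjusted p 0.0701), the smallest p of the 360, and without MI 2 it was 2.48 (adjusted p 0.00298). let-7f-5p, the most abundant member, stood at 4534, 3698, 4015, 5046 and 3742 RPM in sham and 25704, 5624, 20787 and 18241 RPM in MI, with every MI heart above every sham heart. let-7g-5p stood at 1372, 778, 1105, 1325 and 1116 RPM in sham and 6265, 1743, 5000.2 and 10552 RPM in MI, again without overlap.

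Members of the family differed in size of change. let-7c-5p stood at 1289, 1019, 850.3, 1177 and 976 RPM in sham and 9047, 1116, 15126 and 8725 RPM in MI, where MI 2 alone fell inside the sham range. let-7a-5p stood at 1034, 847, 842, 1181 and 934 RPM in sham and 10896, 1239, 11139 and 4161 RPM in MI, with MI 2 just above sham 4. let-7b-5p stood at 338, 298, 199, 367 and 271 RPM in sham and 4851, 277, 8137 and 2059 RPM in MI. Its mean without MI 2 was 17-fold that of sham, the widest of the family, against 4.19-fold for miR-98-5p, 5.13-fold for let-7f-5p and 5.17-fold for let-7i-5p. let-7d-5p stood at 163, 164, 146, 239 and 168 RPM in sham and 1867, 189, 2273 and 1361 RPM in MI. let-7e-5p stood at 151, 72.6, 42.2, 72.3 and 61.2 RPM in sham and 1565, 61.6, 1436 and 314 RPM in MI. MI 2 lay inside the sham range for let-7b-5p, let-7d-5p and let-7e-5p.

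The family median was a log2 change of 2.38 over 4 hearts and 3.05 without MI 2, against 0.94 and 1.32 for all 360. Under median-of-ratios scaling without MI 2, 7 of 9 rose, with changes of 0.74 to 2.59, and under TMM scaling 5 of 9. Over all 360 these scalings called 8.06% and 6.11% higher. With the library set as a term, the changes ran from -0.16 to 0.60, where the set that holds the sham hearts has MI 2 as its one MI heart. The 9 members summed to 7965 to 11828 RPM in sham, 12385 RPM in MI 2, and 54220 to 71021 RPM in MI 1, MI 3 and MI 4. The summed level of the family in MI 2 was above each sham heart, close to that of sham 1.

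Several let-7 hairpins are made from transcripts that also carry miR-99 or miR-125. Mirlet7c-1 (GRCm38, chromosome 16, 77599657 to 77599750, plus strand) and Mir99a (77598936 to 77599000) lie in an intron of the noncoding gene Mir99ahg. Mirlet7e (chromosome 17, 17830352 to 17830444, plus strand) and Mir125a (17830812 to 17830879) lie within Spaca6, the former in an intron and the latter over an exon. Mirlet7d (chromosome 13, 48536012 to 48536114, minus strand), Mirlet7f-1 (48537829 to 48537917) and Mirlet7a-1 (48538179 to 48538272) lie in the noncoding gene 6720427I07Rik, and Mirlet7g (chromosome 9, 106178840 to 106178927, plus strand) in an intron of Wdr82. let-7c-5p and let-7f-5p can come from other hairpins too, so their levels cannot be assigned to a single gene. The hairpins named here need not be the only source of the other members either, let-7a-5p among them.

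miR-125a-5p, the partner of let-7e, had the largest log2 change of the 360 over 4 hearts. It stood at 93.9, 102, 111, 130.3 and 103 RPM in sham and 1478, 156, 2411 and 1007 RPM in MI, with every MI heart above every sham heart. The change was 3.00 (SE 0.86, adjusted p 0.0701), and 3.82 (adjusted p 0.00354) without MI 2. miR-125b-5p, of the same seed, stood at 736, 659.9, 612, 902 and 744 RPM in sham and 5355, 548, 8609.7 and 3548 RPM in MI, where MI 2 was the lowest of the 9. It rose without MI 2 by 2.91 (adjusted p 0.0054). miR-99a-5p, the partner of let-7c-1, stood at 7615, 5249, 5095, 6475 and 6372 RPM in sham and 20460.2, 6794, 25858 and 29696 RPM in MI, and rose without MI 2 by 2.04 (adjusted p 0.00415).

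The remaining members of this group split the infarcted hearts. miR-99b-5p stood at 1788, 1236, 1185, 1635 and 1532 RPM in sham and 9051, 1487, 16795 and 1134 RPM in MI, high in MI 1 and MI 3 and below every sham heart in MI 4. miR-100-5p stood at 3685, 2107, 2073, 3395 and 2699.7 RPM in sham and 10432, 2970.05, 13447 and 2678 RPM in MI, with MI 4 inside the sham range. Of the 5 members of the miR-99/100 and miR-125 group, 3 rose without MI 2 and 0 fell, against 29.7% higher over all 360. The median change was 2.04 against 1.32 for all miRNAs. Under median-of-ratios and under TMM scaling 2 of 5 rose, against 8.06% and 6.11% over all 360. miR-100-5p changed sign to -0.04 under TMM scaling.

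miR-351-5p carries the miR-125 seed and is encoded in the X-linked cluster of miR-322, miR-503 and miR-351, which is known from muscle differentiation. It stood at 7.12, 5.26, 5.38, 3.86 and 4.39 RPM in sham and 60.1, 6.28, 51.4 and 47.7 RPM in MI, with MI 2 inside the sham range and the other MI hearts at least 6-fold above the highest sham heart. The change was 2.42 (SE 0.61, adjusted p 0.0701), and without MI 2 it rose by 3.14 (adjusted p 0.00298). miR-503-3p stood at 1.55, 2.43, 1.95, 0.877 and 1.03 RPM in sham and 10.9, 1.59, 28.6 and 18.7 RPM in MI and rose without MI 2. Of the other 5 members tested none was called on the RPM scale and 1, miR-450a-5p, was called lower under both other scalings, and miR-322-5p, at 66.6, 38.2, 45.9, 25.96 and 30.03 RPM in sham and 51.7, 31.1, 14.2 and 59.4 RPM in MI, had overlapping groups. All 3 tested miRNAs with the seed CCCUGAG rose without MI 2, as RPM and under median-of-ratios and TMM scaling alike. The shares called higher over all 360 were 29.7%, 8.06% and 6.11%.

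The miR-181 family, known from lymphocyte and vascular inflammation, had 3 of 4 tested members rise without MI 2, against 29.7% higher over all 360. miR-181a-5p stood at 509, 378, 430.1, 319 and 415 RPM in sham and 5436, 569.8, 2929 and 1449 RPM in MI, and miR-181b-5p stood at 76.1, 66.1, 60.02, 74.9 and 77.8 RPM in sham and 557, 88.01, 566 and 238 RPM in MI. In both, every MI heart lay above every sham heart, MI 2 by the least. The changes over 4 hearts were 2.23 and 2.0 (adjusted p 0.0701 for each), and without MI 2 they rose by 2.81 and 2.56. All 4 share the seed ACAUUCA, and miR-181c-5p, at 21.4, 11.6, 12.3, 5.79 and 10.3 RPM in sham and 31.3, 19.2, 10.04 and 9.87 RPM in MI, was not called. With the library set as a term the change of miR-181a-5p was 0.73 (unadjusted p 0.0535), where the sets come from these same levels.

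**Figure D4:**
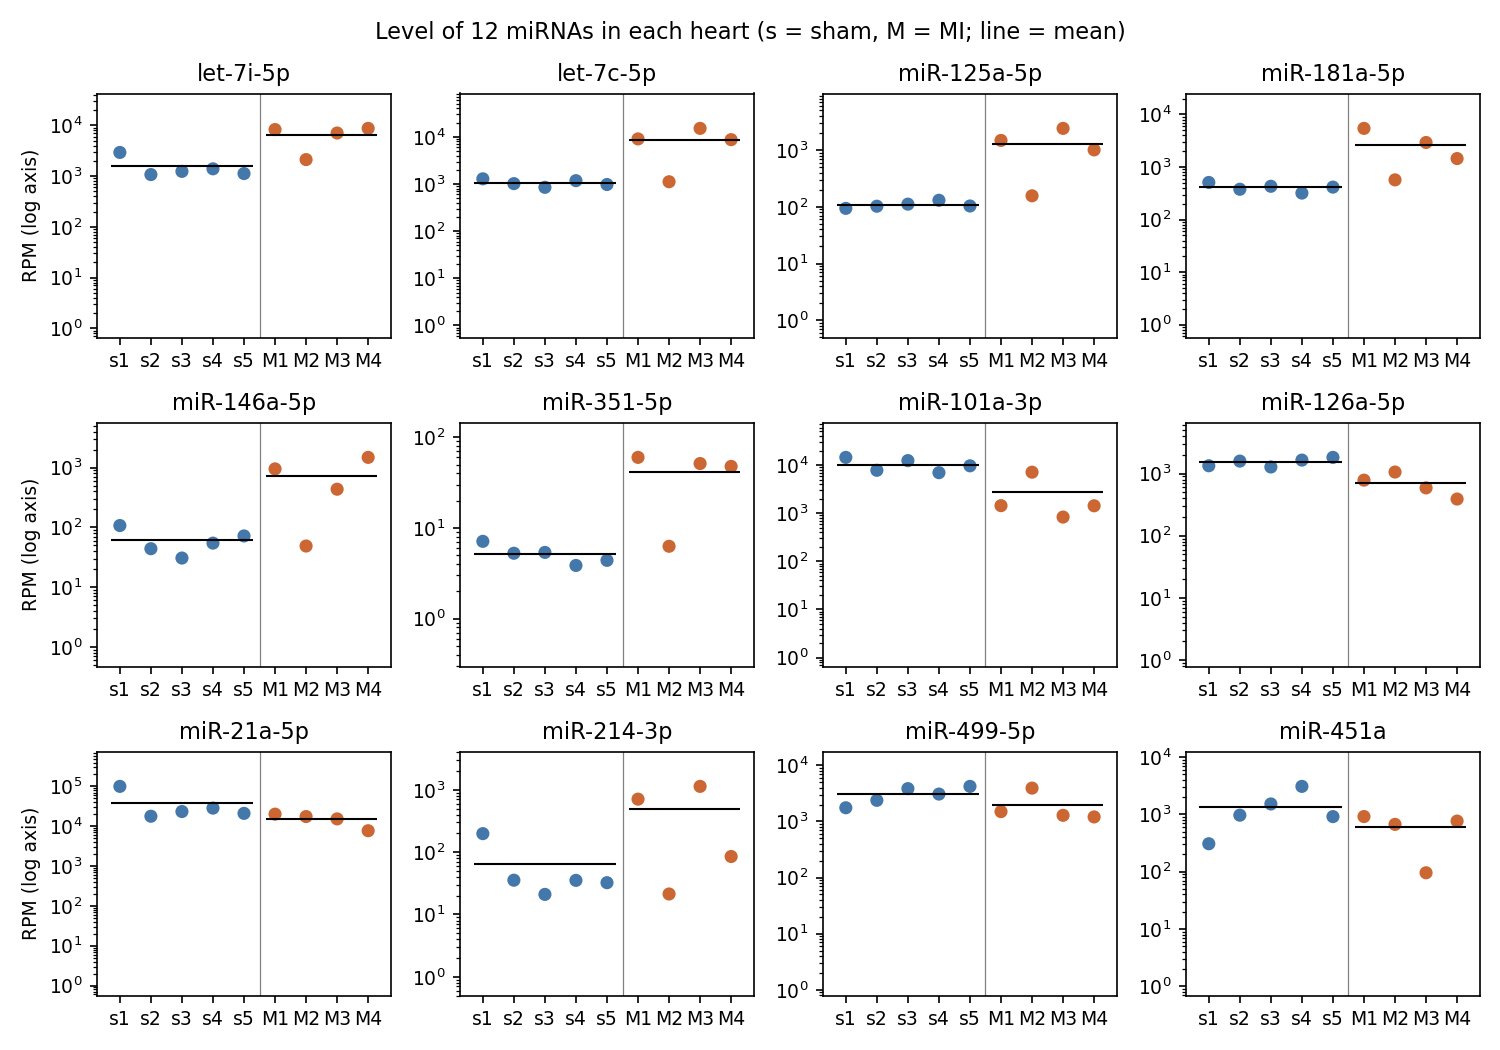
Level in RPM (log axis, own range per panel) of 12 miRNAs in sham 1 to sham 5 (blue) and MI 1 to MI 4 (orange), 1 point per heart, with the group mean as a line. In the let-7, miR-125a-5p, miR-181a-5p, miR-146a-5p and miR-351-5p panels MI 1, MI 3 and MI 4 sit above all sham hearts and MI 2 lies near the sham hearts. miR-101a-3p and miR-126a-5p sit below sham in those hearts, and sham 1 is the highest point for miR-21a-5p.

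miRNAs of inflammation and of leukocytes did not move as one group. miR-146a-5p, which is induced by NF-kappaB and restrains its signalling, stood at 107, 43.995, 30.7, 54.6 and 71.9 RPM in sham and 953, 48.8, 435 and 1485 RPM in MI. The other MI hearts lay at least 4-fold above the highest sham heart, whereas MI 2 lay inside the sham range. The change was 2.87 (adjusted p 0.0701) over 4 hearts, and it rose by 3.89 (adjusted p 0.00298) without MI 2. miR-146b-5p, of the same seed, stood at 194, 95.95, 83.96, 84.2 and 76.7 RPM in sham and 473, 103, 314 and 323 RPM in MI, and rose without MI 2 by 1.85 (adjusted p 0.0176). That rise was 0.54 and not called under median-of-ratios scaling, where miR-146a-5p stayed called at 2.58.

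Among 7 leukocyte miRNAs tested, 2 rose without MI 2 and 0 fell, near the 29.7% higher over all 360, and the median change was 1.21 against 1.32 for all. Under median-of-ratios and under TMM scaling without MI 2, 0 of the 7 rose and 1, miR-142a-5p, fell. Over all 360 these scalings called 9.17% and 11.1% lower. miR-155-5p, of activated leukocytes, stood at 13.1, 26.05, 22.8, 28.1 and 20.8 RPM in sham and 182, 16.4, 208 and 67.6 RPM in MI and rose without MI 2 by 2.62 (adjusted p 0.0155). miR-342-3p stood at 11.05, 24.3, 16.4, 13.9 and 16.1 RPM in sham and 79.999, 16.6, 92.1 and 45.6 RPM in MI and also rose. The lymphocyte miRNA miR-150-5p stood at 42.2, 116, 77.1, 121 and 97.1 RPM in sham and 1089, 88.8, 1291 and 108 RPM in MI, high in MI 1 and MI 3 and inside the sham range in MI 4. It was not called without MI 2 (adjusted p 0.0543). The myeloid miRNA miR-223-3p stood at 12.9, 6.48, 7.14, 10.2 and 6.59 RPM in sham and 31.9, 5.66, 14.5 and 18.8 RPM in MI, with MI 1, MI 3 and MI 4 above each sham heart, MI 3 narrowly, and it was not called.

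The pan-leukocyte miR-142 went the other way. miR-142a-5p stood at 336, 122, 245, 475 and 276 RPM in sham and 128, 91.4, 85.6 and 92.8 RPM in MI, so that only MI 1 reached the lowest sham heart. Its change was -1.43 (unadjusted p 0.0482, adjusted p 0.175) over 4 hearts. miR-142a-3p was at 0 reads in MI 3, at 3.38 and 4.49 RPM in MI 1 and MI 2 and at 36.8 RPM in MI 4, against 8.79 to 19.1 RPM in sham. Summed over 5 leukocyte markers, sham hearts held 281 to 652 RPM, and MI 1 to MI 4 held 1434, 207, 1599 and 325 RPM. By that sum MI 1 and MI 3 lay above sham and MI 2 and MI 4 did not. Most of the sum in MI 1 and MI 3 was miR-150-5p, while miR-142a-5p was the largest part in each sham heart. The sum therefore follows single members that went opposite ways.

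Several miRNAs of fibroblasts and scars were highest, among the sham hearts, in sham 1. miR-21a-5p, raised in many fibrotic tissues, stood at 100570.5, 17878, 23457, 28616 and 21109 RPM in sham and 20197, 17547, 15334 and 7732 RPM in MI. Sham 1 held over 3-fold the level of any other heart, and MI 4 the least. The mean was 38326 ± 35015 RPM (SD, n = 5) in sham and 15203 ± 5363 RPM (n = 4) in MI, or 22765 RPM in sham without sham 1, and the change of -1.08 was not called (adjusted p 0.222). It was called lower under median-of-ratios and TMM scaling without MI 2 (-2.50 and -2.76, adjusted p 0.0291 and 0.0274). No heart with infarction was above the sham range for this miRNA.

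miR-214-3p, from the Dnm3os transcript on chromosome 1 (Mir214, 162223368 to 162223477, plus strand), stood at 198, 35.5, 21.02, 35.3 and 32.4 RPM in sham and 708, 21.3, 1135 and 85.1 RPM in MI. MI 1 and MI 3 were above each sham heart, MI 4 lay between sham 1 and the rest, and MI 2 was at the lower end of sham. It rose without MI 2 by 3.18 (adjusted p 0.0213), and not over 4 hearts (2.13, adjusted p 0.175). miR-199a-3p stood at 1055, 273, 265, 319 and 323 RPM in sham and 1162, 241, 998 and 3209 RPM in MI, highest in MI 4, and rose without MI 2. miR-199a-5p, at 590.2, 77.6, 126, 53.3 and 67.5 RPM in sham and 209, 100.4, 107 and 641 RPM in MI, was not called. Of the 5 tested members of this group 3 rose without MI 2, against 29.7% higher over all 360. Under median-of-ratios or TMM scaling 0 did, against 8.06% and 6.11%. Sham 1 was the highest sham heart in 5 of 5, against 48.3% of all 360.

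The miR-29 family, which represses collagens, had no member called without MI 2 on the RPM scale. miR-29a-3p stood at 324, 309, 469, 368 and 383 RPM in sham and 442, 266, 174 and 1980.5 RPM in MI, high in MI 4 alone and lowest in MI 3. miR-29b-3p stood at 24.2, 18.8, 23.3, 19.998 and 21.97 RPM in sham and 7.19, 9.53, 3.84 and 40.4 RPM in MI, with the same order of hearts at its ends. miR-29c-3p stood at 24.1, 19.8, 32.6, 17.02 and 23.7 RPM in sham and 7.19, 15.6, 2.07 and 16.04 RPM in MI, where each MI heart lay below each sham heart, MI 4 and MI 2 narrowly. Its change was -1.38 (adjusted p 0.183) over 4 hearts and -1.67 (adjusted p 0.0817) without MI 2. Under median-of-ratios scaling without MI 2, 1 of the 5 tested members fell, and under TMM scaling 2 fell, against 9.17% and 11.1% lower over all 360. miR-29c-3p was called in both (-2.77 and -2.98, adjusted p 0.0346 and 0.0304). The median of the 5 was -0.98 over 4 hearts, against 0.94 for all miRNAs.

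miRNAs of cardiac muscle overlapped between the groups, and the arms of their hairpins parted. miR-1a-3p, with the highest mean of these hearts, stood at 189056, 268876, 267785, 272753 and 261221 RPM in sham and 161002, 293893, 150799.6 and 287381 RPM in MI. MI 1 and MI 3 lay below each sham heart, and MI 2 and MI 4 above each. Its change was -0.23 (adjusted p 0.65). miR-133a-3p, encoded beside miR-1, stood at 2451, 3637, 3107, 2684 and 2821 RPM in sham and 22118, 2846, 12229 and 6725 RPM in MI and rose without MI 2 by 2.07 (adjusted p 0.0136). Its other arm miR-133a-5p stood at 259, 243, 366, 301 and 377 RPM in sham and 212, 423, 107 and 245 RPM in MI, lower in MI 1 and MI 3 than in any sham heart, and was not called.

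The log2 ratio of 5p to 3p of miR-133a lay -3.44, -3.57 and -1.52 from the sham mean in MI 1, MI 3 and MI 4, 0.51 in MI 2, and -0.81 to 0.44 in sham. miR-208a comes from an intron of Myh6, the alpha myosin heavy chain gene (Mir208a, chromosome 14, 54949060 to 54949142, minus strand). miR-208a-3p stood at 99.9, 64.9, 74.7, 54.2 and 92.1 RPM in sham and 26.6, 58.5, 28.6 and 100.4 RPM in MI, lowest in MI 1 and MI 3. miR-208a-5p stood at 2.74, 5.94, 3.62, 5.79 and 4.101 RPM in sham and 109, 4.004, 93.6 and 5.46 RPM in MI, highest in MI 1 and MI 3. One hairpin thus gave a lower 3p arm and a higher 5p arm in the same hearts, and neither arm was called. Over all 86 hairpins, the arms had log2 changes of opposite sign in 23 on the RPM scale. Some of these changes lay near 0, such as -0.02 for miR-195a-5p and -0.04 for let-7i-3p, and their sign depends on the scaling. The 86 count miR-126a and miR-126b apart, although miR-126b-3p repeats the reads of miR-126a-5p.

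Of the other myosin-encoded miRNAs, miR-499-5p stood at 1751, 2376, 3839, 3069 and 4208 RPM in sham and 1496, 3919.8, 1283 and 1202 RPM in MI. MI 1, MI 3 and MI 4 lay below each sham heart and MI 2 inside the sham range, and the change without MI 2 was -1.13 (adjusted p 0.0741). miR-208b-3p, from the beta myosin gene Myh7, stood at 41.7, 6.61, 8.504, 6.49 and 10.1 RPM in sham and 4.905, 9.18, 22.1 and 14.8 RPM in MI, and its highest value was that of sham 1. Of the 9 muscle-enriched miRNAs tested, 1 rose without MI 2 and 0 fell, against 29.7% higher over all 360. Their median change was 0.10 against 1.32 for all miRNAs. Under median-of-ratios and under TMM scaling without MI 2, 0 rose and 2 fell, against 9.17% and 11.1% lower over all 360.

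Vessel miRNAs differed by arm and by member. miR-126a-5p, of endothelium, stood at 1335, 1586, 1275, 1647 and 1821 RPM in sham and 784, 1058, 588 and 389 RPM in MI, with each MI heart below each sham heart. The mean was 1533 ± 226 RPM (n = 5) in sham and 705 ± 285 RPM (n = 4) in MI, the change was -1.20 (SE 0.47, adjusted p 0.125), and it fell without MI 2 by 1.43 (adjusted p 0.0343). It also fell under median-of-ratios and TMM scaling. The 3p arm did not go along: miR-126a-3p stood at 7168, 7680.02, 7184, 7516 and 8861 RPM in sham and 6729, 6263, 4809 and 47116 RPM in MI, a little below sham in MI 1, MI 2 and MI 3 and over 5-fold above every other heart in MI 4.

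miR-143-3p, of smooth muscle, had the next highest mean after miR-1a-3p and its repeat row, and stood at 260901, 240182, 197959, 206780.02 and 225532 RPM in sham and 127688, 157209, 193331 and 24478 RPM in MI. Each MI heart lay below each sham heart, MI 3 narrowly and MI 4 far below. Its change was -1.19 (adjusted p 0.192) over 4 hearts, and it was called lower under median-of-ratios and TMM scaling without MI 2 (adjusted p 0.0102 and 0.00756). miR-145a-5p, made from the same cluster, stood at 494, 1327, 977, 1193 and 716 RPM in sham and 2876, 742, 2807 and 1405 RPM in MI and rose without MI 2 by 1.34 (adjusted p 0.0464). Under TMM scaling that change had the opposite sign (-0.24) and was not called.

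The miR-101 family, known to repress histone methyltransferase and fibrosis genes, had the largest of the falls that were called. miR-101a-3p stood at 14451, 7791, 12384, 6954 and 9654 RPM in sham and 1434, 7117, 831 and 1425 RPM in MI, and miR-101b-3p stood at 2285, 1288, 1806, 1331 and 1502 RPM in sham and 400.1, 1127, 184 and 421 RPM in MI. MI 1, MI 3 and MI 4 lay far below each sham heart, whereas MI 2 was just inside the sham range for miR-101a-3p and just below it for miR-101b-3p. Over 4 hearts the changes were -2.40 (adjusted p 0.103) and -1.89 (adjusted p 0.125). Without MI 2 they fell by 3.05 (adjusted p 0.014) and 2.35 (adjusted p 0.0221), and both also fell under median-of-ratios and TMM scaling. Mir101a (chromosome 4, 101346945 to 101347027, minus strand) and Mir101b (chromosome 19, 29135279 to 29135375, plus strand, in an intron of Rcl1) are at separate places. Their mature sequences hold 33.3% and 42.1% GC. The part of GC content in their change was not tested beyond the fit with GC content taken out, where the changes without MI 2 were -2.19 and -1.98 (adjusted p 0.0192 and 0.0235).

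Other miRNAs that lay lower were spread over groups. miR-22-3p, abundant in heart muscle, stood at 10908, 14064, 13709, 12863 and 12611 RPM in sham and 10695, 12525, 5701 and 866 RPM in MI, with MI 1 just below sham, MI 3 lower and MI 4 lowest. It was not called without MI 2 (-1.77, adjusted p 0.099) and was called lower with median-of-ratios or TMM scaling. miR-192-5p, of epithelia, stood at 561, 445, 555, 471 and 762 RPM in sham and 255, 545, 159 and 190.1 RPM in MI and fell without MI 2 by 1.47 (adjusted p 0.0476). miR-16-1-3p, the minor arm of a miR-16 hairpin, stood at 124, 29.7, 60.2, 32.6 and 33.4 RPM in sham and 16.7, 39.7, 9.15 and 9.26 RPM in MI and fell without MI 2 by 1.99 (adjusted p 0.0364). With miR-101a-3p, miR-101b-3p, miR-126a-5p and its repeat row, these are all 6 rows called lower.

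miR-30 members, abundant in heart muscle, went both ways. miR-30a-5p stood at 29710.1, 19558, 35629, 16981 and 20925 RPM in sham and 40622, 27202, 16621 and 20801 RPM in MI, with overlapping groups. miR-30e-5p stood at 5615, 4387, 9223, 3266 and 4008 RPM in sham and 2133, 7971, 655 and 2489 RPM in MI, low in MI 1, MI 3 and MI 4 and high in MI 2, and was not called on the RPM scale. Of 11 tested, 1 rose without MI 2, the minor arm miR-30a-3p, against 29.7% higher over all 360. The median change was 0.70 against 1.32. Under median-of-ratios and under TMM scaling without MI 2, 0 of the 11 rose and 2 fell, miR-30e-5p among them (-3.03 and -3.29). Those scalings called 9.17% and 11.1% lower over all 360. Of the miR-15/16 family, known as a brake on cell division, 8 were tested, of which miR-497a-5p rose and miR-16-1-3p fell without MI 2. miR-497a-5p stood at 13.7, 6.75, 3.03, 6.84 and 6.01 RPM in sham and 65.2, 5.11, 33.4 and 27.5 RPM in MI, with MI 1, MI 3 and MI 4 above sham 1. Under median-of-ratios and TMM scaling that rise was not called, and miR-16-1-3p still fell. Over all 360, the RPM scale gave 29.7% higher and 1.67% lower. The 2 scalings gave 8.06% and 6.11% higher, and 9.17% and 11.1% lower.

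Among miRNAs of proliferation, the miR-17/92 cluster and its paralogues had 10 members tested, of which 2 rose without MI 2 and 0 fell, against 29.7% higher over all 360. Under median-of-ratios scaling 1 rose and 1 fell, and under TMM scaling 1 rose and 2 fell. Over all 360 these scalings called 8.06% and 6.11% higher, and 9.17% and 11.1% lower. miR-92a-3p stood at 63.4, 54.4, 80.2, 149 and 71.9 RPM in sham and 1254, 86.9, 1275 and 364 RPM in MI and rose without MI 2 by 3.40 (adjusted p 0.00522), and stayed called under both other scalings. miR-25-3p, of the same seed AUUGCAC, stood at 182, 161, 301, 651 and 319.7 RPM in sham and 1537, 152, 1613 and 773 RPM in MI and also rose. The cluster partner miR-19b-3p went the other way, at 42.9, 49.7, 58.6, 37.5 and 32.95 RPM in sham and 7.19, 41.4, 5.905 and 27.5 RPM in MI, and was called lower without MI 2 under TMM scaling alone (-3.34, adjusted p 0.0494). The p53-regulated miR-34 family had 2 of 4 members rise without MI 2, against 29.7% higher over all 360. miR-34a-5p was among them, at 31.8, 18.8, 28.4, 21.6 and 24.2 RPM in sham and 122, 17.8, 54.03 and 69.02 RPM in MI. Of the miR-23/27/24 clusters, 2 of 9 rose, below the 29.7% over all 360. miR-23b-3p stood at 598, 367, 227, 411 and 343 RPM in sham and 4296, 209, 2618 and 684 RPM in MI. None of the miR-34 or miR-23/27/24 calls held under median-of-ratios or TMM scaling without MI 2. There 0 of each group rose, against 8.06% and 6.11% over all 360.

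Erythroid miRNAs parted too. miR-451a stood at 307, 968, 1519, 3078 and 914 RPM in sham and 916, 669, 95.7 and 763 RPM in MI, lowest in MI 3, with sham 1 below 3 of the MI hearts. miR-144-3p, from the same transcript, stood at 14.8, 7.42, 26.9, 26.3 and 16.99 RPM in sham and 1.85, 3.31, 1.77 and 9.21 RPM in MI, and neither was called on the RPM scale. miR-486a-5p, of erythroid and muscle cells, stood at 246, 365, 328, 702 and 613 RPM in sham and 4475, 329, 7029.9 and 1621 RPM in MI and rose without MI 2 by 3.15 (adjusted p 0.0136). The row miR-486a-3p rose with it and carries nearly the same values, since the miR-486 hairpins overlap on opposite strands, so the 2 of 5 erythrocyte members that rose may be the same molecules. Under median-of-ratios and under TMM scaling without MI 2, 0 of the 5 rose and 3 fell, which were miR-451a, miR-144-3p and miR-144-5p. Over all 360, 29.7% were called higher as RPM, and 9.17% and 11.1% lower under these scalings.

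The hypoxia-induced miR-210-3p stood at 11.9, 5.26, 7.33, 4.21 and 4.83 RPM in sham and 23.8, 5.94, 13.6 and 17.4 RPM in MI. Except MI 2, the MI hearts lay above sham 1, the highest sham heart, and MI 2 lay among the other sham hearts. The change was 1.01 (adjusted p 0.236) and 1.37 (adjusted p 0.099) without MI 2, close to the medians of all 360 miRNAs, 0.94 and 1.32.

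The imprinted Dlk1-Dio3 cluster, a large group of miRNAs of growth and development, had 39 members tested, of which 12 rose without MI 2 and 0 fell, near the 29.7% higher over all 360. Under median-of-ratios scaling 5 rose and 1 fell, and under TMM scaling 5 rose and 2 fell, against 8.06% and 6.11% higher over all 360. The shares called lower were 9.17% and 11.1%. Its median was 1.34, against 1.32 for all miRNAs. miR-541-5p stood at 13.5, 6.88, 5.08, 4.21 and 3.52 RPM in sham and 49.8, 5.94, 59.3 and 71.8 RPM in MI and rose without MI 2 by 3.12 (adjusted p 0.00298). miR-127-3p stood at 833, 313, 170.1, 268 and 289 RPM in sham and 3464, 237, 4105 and 589 RPM in MI, and miR-337-5p at 7.76, 2.02, 1.27, 1.93 and 2.78 RPM in sham and 55.7, 2.14, 49.3 and 19.2 RPM in MI. In 38 of the 39 members sham 1 was the highest sham heart, against 48.3% of all 360, and in 36 MI 2 lay within the sham range, against 68.1%. The 39 summed to 592 to 910 RPM in sham 2 to sham 5, 3184 RPM in sham 1, 802 RPM in MI 2 and 1718 to 6011 RPM in the others.

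Among miRNAs of other tissues, 11 were tested, 3 rose without MI 2, near the 29.7% higher over all 360, and miR-192-5p fell. Under median-of-ratios and TMM scaling 0 rose, and miR-192-5p still fell. Over all 360 these scalings called 8.06% and 6.11% higher, and 9.17% and 11.1% lower. miR-200c-3p, of epithelia, stood at 1.92, 1.62, 3.71, 9.82 and 3.52 RPM in sham and 244, 4.42, 17.7 and 12.8 RPM in MI, and miR-205-5p at 0.913, 1.62, 0.88, 2.28 and 0.732 RPM in sham and 91.01, 1.04, 2.66 and 20.2 RPM in MI. Both were highest in MI 1, at over 4-fold the level of any other heart. miR-455-3p, of cartilage, and miR-328-3p belong to no group here. miR-455-3p stood at 16.5, 5.398, 6.55, 5.96 and 7.03 RPM in sham and 121, 10.4, 168 and 51.7 RPM in MI, and miR-328-3p at 51.9, 67.2, 40.8, 63.2 and 56.2 RPM in sham and 468, 64.1, 511 and 317 RPM in MI. Each rose without MI 2, by 3.58 and 2.92 (adjusted p 0.00298 and 0.00337), and stayed called under both other scalings.

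**Figure D5:**
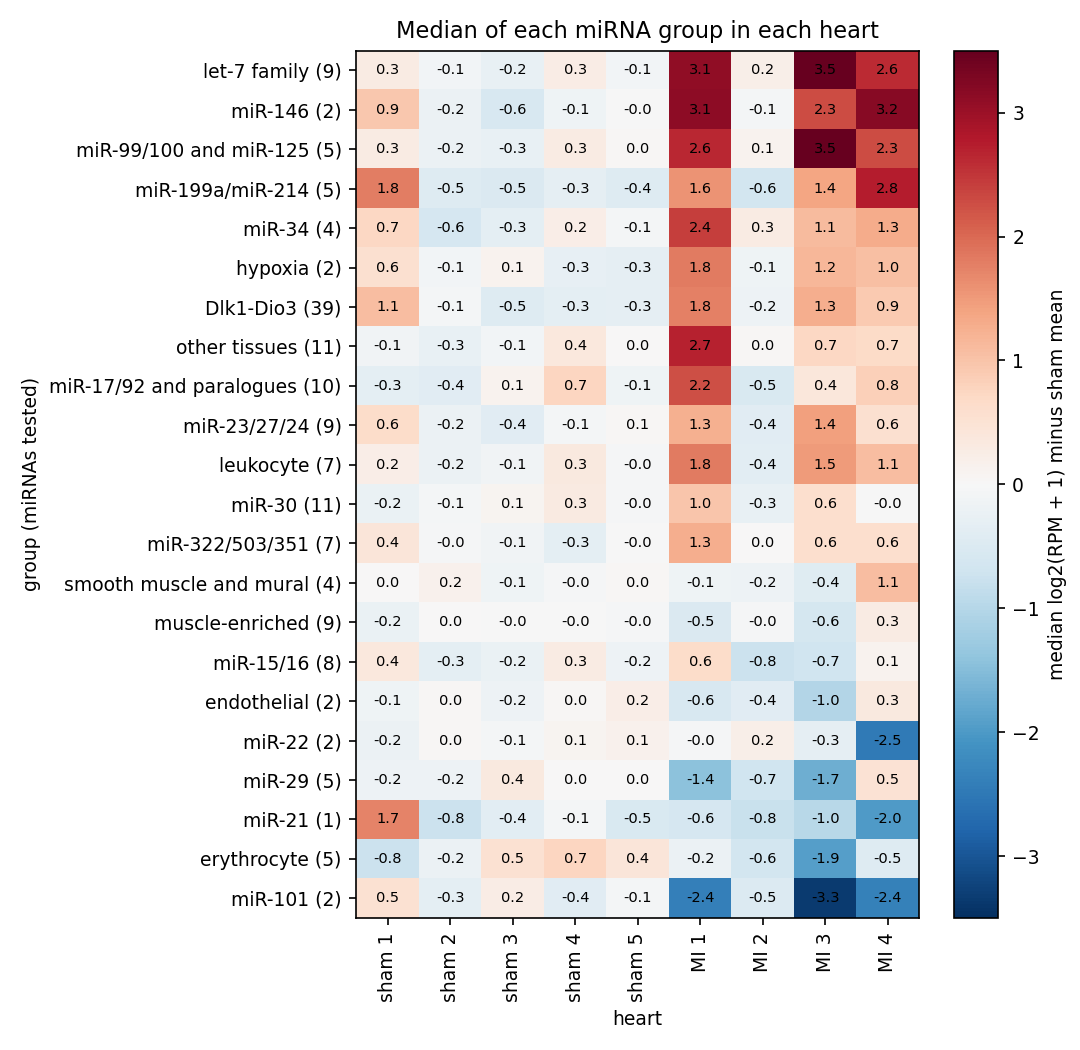
Median difference from the sham mean, in log2(RPM + 1), of each group of miRNAs (rows, number tested in brackets) in each heart (columns), red for higher and blue for lower. MI 1, MI 3 and MI 4 are red for let-7 (3.1, 3.5 and 2.6) and blue for miR-101 (-2.4, -3.3 and -2.4), the MI 2 column is pale throughout, and sham 1 is red for miR-199a/miR-214 (1.8) and miR-21 (1.7).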

How the data were processed

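Small RNA of flash-frozen hearts was extracted with Trizol and made into libraries with a NEBNext kit, per the labels' protocols. The submitters' processing notes name mm10, Bowtie and DESeq 1.8.3 with no role; the miRBase release and counting rules are not given in the sources used here. The authors deposited RPM values (headed tpm, with no length term), which sum to 1000000 per library. All values (100%) equalled a whole number of reads within 0.05 of a read, which gave the reads.

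The 360 miRNAs that reached 5 RPM in 4 or more of the 20 libraries were fitted on log2(RPM + 1) with limma 3.58.1 (R 4.3.3), using 1 mean per group in the 20 libraries, a trend, two-sided tests and Benjamini-Hochberg adjustment over the 360, threshold 0.05. Adjusted p-values are limma's unless another tool is named, and the pseudocount understates changes of low miRNAs. Alternatives were other pseudocounts, filters, scalings and weights, a replicate block, edgeR 4.0.16, DESeq2 1.42.0, an exact permutation test, and libraries left out; fits combining these with the removal of MI 2, and those with GC content, were added after seeing the data. Code was tested on simulated data.

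The comparison, its miRNAs and the lists were chosen with earlier results of these data known. Named miRNAs are those with a mean of at least 50 RPM and the smallest p (10 per direction, with and without MI 2), the 10 highest means, 2 to 4 members per list with called ones, and the cell type markers. miR-133a-5p, miR-144-5p, miR-181c-5p, miR-19b-3p, miR-208a-5p, miR-455-3p and miR-881-3p were named after their values were seen. The same-numbered hearts of the groups did not deviate together (r of deviations -0.01, -0.10, -0.32 and -0.25). The numbers were therefore not used as pairs, although so few correlations cannot exclude a pairing. Sequences and hairpin coordinates are RefSeq's and host genes GENCODE's, on GRCm38, which is mm10.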

Additional observations from a re-analysis of the deposited data

Results flagged for a closer look

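Of 218 sets of values examined (each named miRNA with its 5 sham or its 4 MI hearts), 19 (8.72%) held a heart far from the rest of its group by Dixon's criterion, which flags about 1 in 20 by chance; sets of the same heart are not independent. Sham 1 held 10 of the 19. It was the highest sham heart for let-7i-5p (2924 RPM), miR-21a-5p (100570 RPM), miR-199a-3p (1055 RPM), miR-214-3p (198 RPM), miR-146b-5p (194 RPM), miR-208b-3p (41.7 RPM) and the Dlk1-Dio3 members miR-411-5p (566 RPM), miR-434-5p (227 RPM) and miR-382-5p (7.03 RPM), and the lowest for miR-1a-3p (189056 RPM). miR-208b-3p is known from beta myosin and miR-21a-5p and miR-214-3p from fibrosis, and in sham 1 each stood above every other sham heart.

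MI 2 held 6 of the 19, and in each it was the lowest MI heart: let-7i-5p (2114 RPM), miR-361-3p (36.4 RPM), miR-351-5p (6.28 RPM), miR-329-3p (0.690 RPM), miR-370-3p (2.62 RPM) and miR-541-5p (5.94 RPM). The remaining flags were miR-451a in MI 3, the lowest (95.7 RPM), miR-126a-3p in MI 4, the highest (47116 RPM), and let-7d-5p in sham 4, the highest (239 RPM).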

How the results depend on the processing

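With all hearts kept, limma called 0 miRNAs, and 0 also with pseudocounts of 0.5 or 5 RPM, no filter, a filter on the 9 libraries, median-of-ratios or TMM scaling, a fit of the 9 libraries, edgeR, the exact permutation test (smallest adjusted p 0.147) and the library set as a term. With few ways to split 9 hearts, the permutation test can pass the threshold after adjustment only if many miRNAs separate fully. The library sets come from these same levels, with MI 2 as the only MI heart beside the sham hearts. The 0 of these last fits therefore adds little. The replicate block gave 0 as well, with 94 at an unadjusted p under 0.05 and a smallest adjusted p of 0.0810. Keeping only miRNAs that averaged 50 RPM or more gave 14 calls, removal of repeat rows 6, DESeq2 39 and sample quality weights 261; the weights, whose estimation did not converge, gave MI 2 0.121 against 0.211 to 1.88 for the other MI hearts. Leaving out 1 library at a time gave 0 to 113, with 113 without MI 2 and 31 without MI+CIH 1. Without sham 1 and MI 2 the count was 114, and 102 of these were among the 113.

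With MI 2 left out, median-of-ratios scaling called 62 (35 of the 113), TMM scaling 62 (28 of the 113), edgeR 37 (21 higher, 16 lower) and a fit of the 9 libraries 191. Also leaving out MI 1 gave 39, MI 3 35, MI 4 194, sham 2 83, sham 3 71, sham 4 86 and sham 5 80. The 306 miRNAs with a sequence gave 104, and 109 with GC content taken out. miR-22-5p, at a log2 change of 0.01 over 4 hearts, changed sign and was called lower without MI 2 under median-of-ratios scaling (-1.45), TMM scaling (-1.71) and edgeR (-1.73); the cause was not tested. Of the 112 named miRNAs, the sign differed from the reported one in 23 under median-of-ratios scaling, 29 under TMM scaling and 51 with the library set as a term. That term was drawn from these same levels. 3 reads in MI 3, the shallowest library, are worth 0.886 RPM, so its levels near that value cannot be told from 0.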

Other observations

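Among the most abundant miRNAs not described above, the infarcted hearts differed from one another. miR-378a-3p, encoded in the metabolic regulator gene Ppargc1b, stood at 28534, 27259, 24224, 24175 and 34849 RPM in sham 1 to sham 5 and at 87098, 32567, 65786 and 17628 RPM in MI 1 to MI 4. It was above each sham heart in MI 1 and MI 3 and below each in MI 4. miR-148a-3p stood at 39017, 26102, 26723, 24949 and 22829 RPM in sham and at 12928, 21809, 24769 and 84389 RPM in MI, with the highest level in MI 4 and the lowest in MI 1. miR-26a-5p stood at 12428, 12124, 13190.3, 15164 and 13259 RPM in sham and at 31844, 16305, 27919 and 13821 RPM in MI, above each sham heart in MI 1, MI 2 and MI 3. None of the 3 was called with or without MI 2.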
